A study of Arabidopsis thaliana with 12 samples.

Results

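The response of Arabidopsis thaliana seedlings to Pst hrcC- was described here from the transcriptomes of the 6 libraries labelled WT (Col-0) among the 12 of the series: 3 from seedlings sprayed with the bacteria and 3 from mock-treated seedlings. Pst hrcC- is a mutant of Pseudomonas syringae pv. tomato DC3000 that lacks a working type III secretion system and so cannot inject effector proteins into plant cells. All seedlings were whole plants aged 14 days, taken 24 h after treatment, and the study's methods describe 3 independent biological experiments. The remaining 6 libraries carry the label Atg3bp1, a mutant line of the gene for the RNA-binding protein AtG3BP1, under the same treatments. The comparison covered all genes of the expression table, 27371 in number, of which 17158 passed a filter on low values and were tested. Genes that differed between the hrcC- and mock libraries in either direction are described below, with the genes of their pathways that did not.

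AtG3BP1 (AT5G48650) itself goes against the genotype labels. Its level was 0.426, 0.354 and 0.311 FPKM in the hrcC- libraries and 0.354, 0.0179 and 0.221 FPKM in the mock libraries labelled WT. In the libraries labelled Atg3bp1 it was 18.4, 16 and 12.5 FPKM after hrcC- and 16.6, 13.5 and 11.4 FPKM after mock. The gene was therefore near 0 in the libraries labelled WT and well expressed in those labelled mutant, and the genotype of the 6 libraries described here is given by its label only. The treatment label does not depend on this gene.

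Plants read conserved bacterial molecules such as flagellin through receptor kinases at the cell surface, which leads to pattern-triggered immunity. The hormones salicylate and jasmonate shape what follows and often act against each other. Jasmonate is made from plastid lipids; its isoleucine conjugate joins the receptor COI1 to the JAZ repressors, which are then destroyed and release MYC2 and related transcription factors. Strain DC3000 is known to make coronatine, a toxin that resembles this conjugate; whether the sprayed bacteria made it in these seedlings was not measured. Jasmonate also induces chemical defences of the mustard family, including glucosinolates and the myrosinases that cleave them, and is known to restrain growth.

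Genes averaging at least 1 FPKM over the 12 libraries were tested, and measured members of a list are those that passed this filter. A call below needs an adjusted p of at most 0.05 (limma on log2(FPKM + 1), Benjamini-Hochberg over all genes tested) and a change of at least 2-fold on that scale, which understates changes of low genes. Of 17158 genes tested, 492 (2.87%) rose and 55 (0.321%) fell after hrcC-. The rises made up 89.9% of the calls. With a term for the libraries whose scaling factors were high, 579 genes rose and 306 fell, and that share was 65.4%. The rises were also the steeper changes. 166 genes rose at least 4-fold and 32 at least 16-fold, against 7 that fell at least 4-fold. The median log2 fold change was 1.67 among the called rises and -1.28 among the called falls, and -0.06 over all genes tested. In bulk seedlings, fewer cells of a type and less RNA per cell cannot be told apart.

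**Figure D1:**
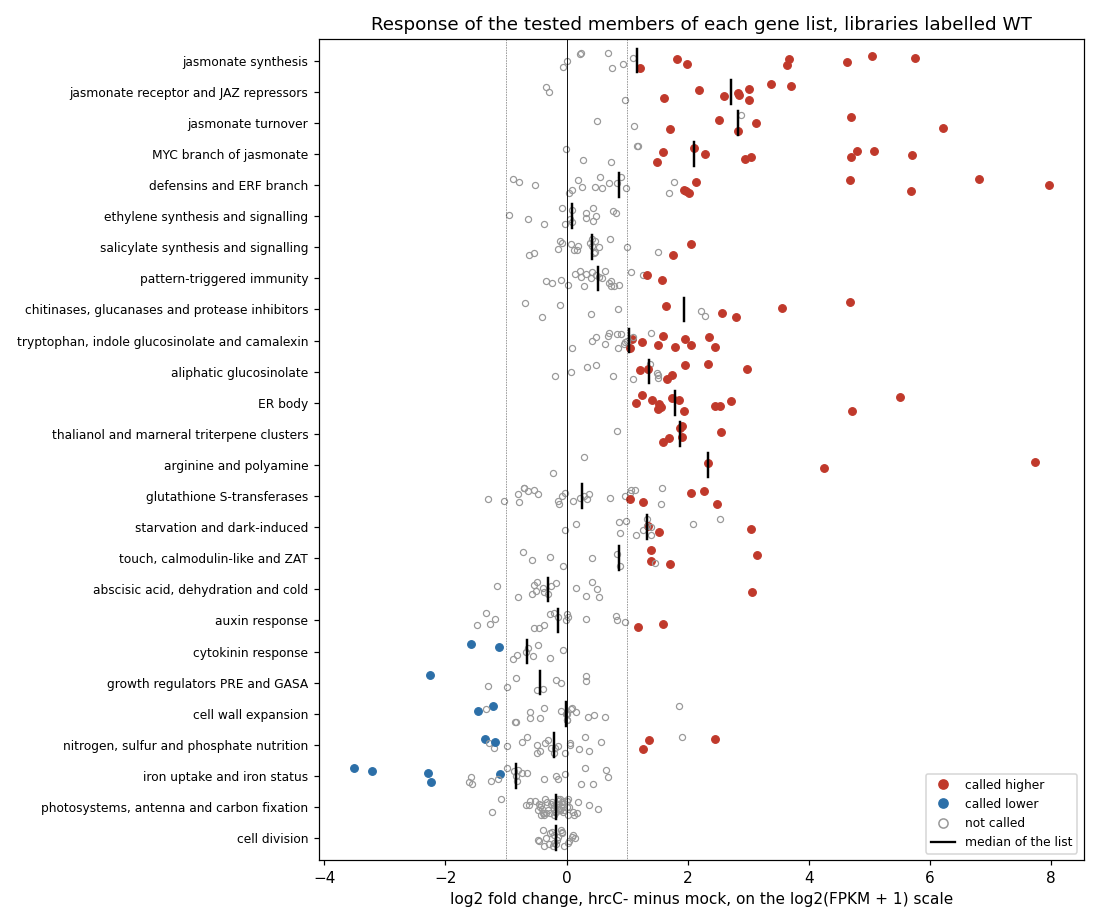
Log2 fold change (hrcC- minus mock, libraries labelled WT) of the tested members of 26 gene lists; red points were called higher, blue points called lower, open grey points not called, bars mark list medians and dotted lines 2-fold. The JAZ list, which includes COI1, with a median of 2.72, and the ER body proteins, at 1.8, lie to the right of 0, while the iron list, at -0.83, and the cytokinin list, at -0.65, lie to the left.

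Jasmonate synthesis genes rose at successive steps of the main route. LOX2, the plastid lipoxygenase that starts it, had 622, 1037 and 927 FPKM in hrcC- libraries against 19.1, 14.6 and 11.2 FPKM in mock libraries (log2 fold change 5.75 ± 0.34 SE, adjusted p = 1.11e-06). The hrcC- libraries all lay far above the mock libraries. AOS, allene oxide synthase, had 235, 454 and 432 FPKM in hrcC- libraries against 41.7, 21.3 and 22.3 FPKM in mock libraries. The allene oxide cyclases AOC1 and AOC2, neighbours on chromosome 3, rose by 5.04 and 4.64 on the log2 scale, although near-identical copies can share reads. OPR3, the reductase that acts next in the peroxisome, had 37.8, 76.2 and 63 FPKM in hrcC- libraries against 4.61, 3.55 and 2.71 FPKM in mock libraries. OPCL1, LOX4 and AOC4 rose by 1.99, 1.82 and 1.22. In all, 8 of the 16 measured synthesis genes rose, against 2.87% of all genes, none was called lower and the list median was 1.16.

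The repressors of the pathway rose with it. Of 11 measured JAZ genes, 9 rose, against 2.87% of all genes. JAZ7 had 25.5, 18.6 and 22.5 FPKM in hrcC- libraries against 0.516, 1.14 and 0.576 FPKM in mock libraries, and JAZ9 had 78.5, 43.9 and 65.6 FPKM in hrcC- libraries against 4.07, 5.38 and 5.44 FPKM in mock libraries. JAZ1, JAZ5, JAZ8 and JAZ10 rose by 3.02, 3.01, 2.84 and 2.84, and JAZ2, JAZ6 and JAZ3 by 2.6, 2.19 and 1.61. The exceptions were JAZ12, at 0.97 (adjusted p = 0.0336, under 2-fold), and JAZ11, at -0.34 (adjusted p = 0.605). The receptor gene COI1 had 12.6, 8.51 and 9.05 FPKM in hrcC- libraries against 12.7, 13.6 and 11 FPKM in mock libraries and was not called (adjusted p = 0.394).

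Enzymes that inactivate jasmonates were among the steepest rises. JRG21 (also JOX3), one of the oxygenases that hydroxylate jasmonic acid, had 64.9, 57.4 and 177 FPKM in hrcC- libraries against 0.0974, 0.255 and 0.0836 FPKM in mock libraries (log2 fold change 6.21 ± 0.37 SE, adjusted p = 1.12e-06). AT5G05600, of the same oxygenase family, had 73, 67.6 and 121 FPKM in hrcC- libraries against 1.77, 2.78 and 2.32 FPKM in mock libraries. ST2A, which sulfates hydroxyjasmonate, rose by 3.13. The amidohydrolases ILL6 and IAR3, which split the isoleucine conjugate, rose by 2.82 and 2.51, and CYP94B1, which oxidises it, by 1.71. Thus synthesis, repression and breakdown were higher in the same libraries, with 6 of 9 measured turnover genes called, against 2.87% of all genes.

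The MYC2 branch, which governs wound and insect defence, rose as well, with 10 of 15 measured genes called, against 2.87% of all genes. MYC2 itself had 54, 84.1 and 53.8 FPKM in hrcC- libraries against 8.37, 5.18 and 6.72 FPKM in mock libraries. Among them were each of the 6 target genes that passed the filter, of 9 listed. CORI3, a cystine lyase and classic coronatine marker, had 201, 146 and 241 FPKM in hrcC- libraries against 3.58, 2.1 and 2.37 FPKM in mock libraries, and VSP2, a vegetative storage protein, had 415, 653 and 579 FPKM in hrcC- libraries against 21.7, 12.5 and 12.2 FPKM in mock libraries. VSP1, chlorophyllase CLH1 and tyrosine aminotransferase TAT3 rose by 4.7, 4.8 and 2.94, and the terpene synthase gene TPS04 by 1.59. NATA1, which acetylates ornithine in a jasmonate-dependent way, was among the steepest rises, with 326, 267 and 509.8 FPKM in hrcC- libraries against 0.47, 0.658 and 0.75 FPKM in mock libraries (log2 fold change 7.74 ± 0.26 SE, adjusted p = 2.35e-08). Enzymes of arginine metabolism, which supplies ornithine, moved with it: ARGAH2, an arginase, had 314, 377 and 521 FPKM in hrcC- libraries against 21.2, 19 and 19 FPKM in mock libraries, and ADC2, arginine decarboxylase, had 122, 306 and 275 FPKM in hrcC- libraries against 47.3, 39.6 and 40.8 FPKM in mock libraries. Their isoforms ARGAH1 and ADC1 were not called, at 0.29 and -0.23.

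Promoter windows of 200 bases before the annotated gene start (RefSeq, TAIR10.1; Col-0 genome) were read for the G-box CACGTG, the core site of MYC2-type factors. The 4 JAZ genes called higher whose windows hold it are shown because MYC2 and its repressors rose together, although most other called jasmonate genes lack the box in this window. They were chosen after their values were seen, and capitals mark the motif.
JAZ7: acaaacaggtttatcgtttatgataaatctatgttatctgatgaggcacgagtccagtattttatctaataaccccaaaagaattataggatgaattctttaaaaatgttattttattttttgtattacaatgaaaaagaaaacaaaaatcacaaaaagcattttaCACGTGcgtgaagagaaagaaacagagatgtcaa
JAZ8: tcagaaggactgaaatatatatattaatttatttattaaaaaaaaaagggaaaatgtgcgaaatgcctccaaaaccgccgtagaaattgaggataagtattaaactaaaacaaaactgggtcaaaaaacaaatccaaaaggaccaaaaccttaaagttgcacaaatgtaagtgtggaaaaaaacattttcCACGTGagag
JAZ2: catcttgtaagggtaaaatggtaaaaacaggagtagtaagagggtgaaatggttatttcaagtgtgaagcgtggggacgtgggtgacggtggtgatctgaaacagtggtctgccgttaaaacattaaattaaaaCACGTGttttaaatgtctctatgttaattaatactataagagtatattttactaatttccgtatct
JAZ3: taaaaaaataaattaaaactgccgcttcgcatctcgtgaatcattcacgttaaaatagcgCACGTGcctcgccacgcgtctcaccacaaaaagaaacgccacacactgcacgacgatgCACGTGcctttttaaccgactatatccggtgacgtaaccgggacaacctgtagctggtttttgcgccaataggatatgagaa
These lie at chr2:14572830-14573029 (plus strand), chr1:10596152-10596351 (plus strand), chr1:28150447-28150646 (minus strand) and chr3:6119507-6119706 (plus strand), each 5′ to 3′ on the gene's strand, and none overlaps another gene. The JAZ7 box starts at position -34 and the JAZ8 box at -10 from the gene start, while the JAZ3 window holds a pair of boxes. G-boxes, which read the same on both strands, stood in 60 of 490 windows of genes that rose (12.2%), 2 of 55 of genes that fell (3.64%) and 6.46% of all 16988 windows. Among the called genes of the jasmonate lists they stood in 4 of 9 JAZ windows, 1 of 8 of synthesis genes, 0 of 6 of turnover genes and 0 of 10 of MYC branch genes. A match is a run of letters in this window and not a shown binding site.

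**Figure D2:**
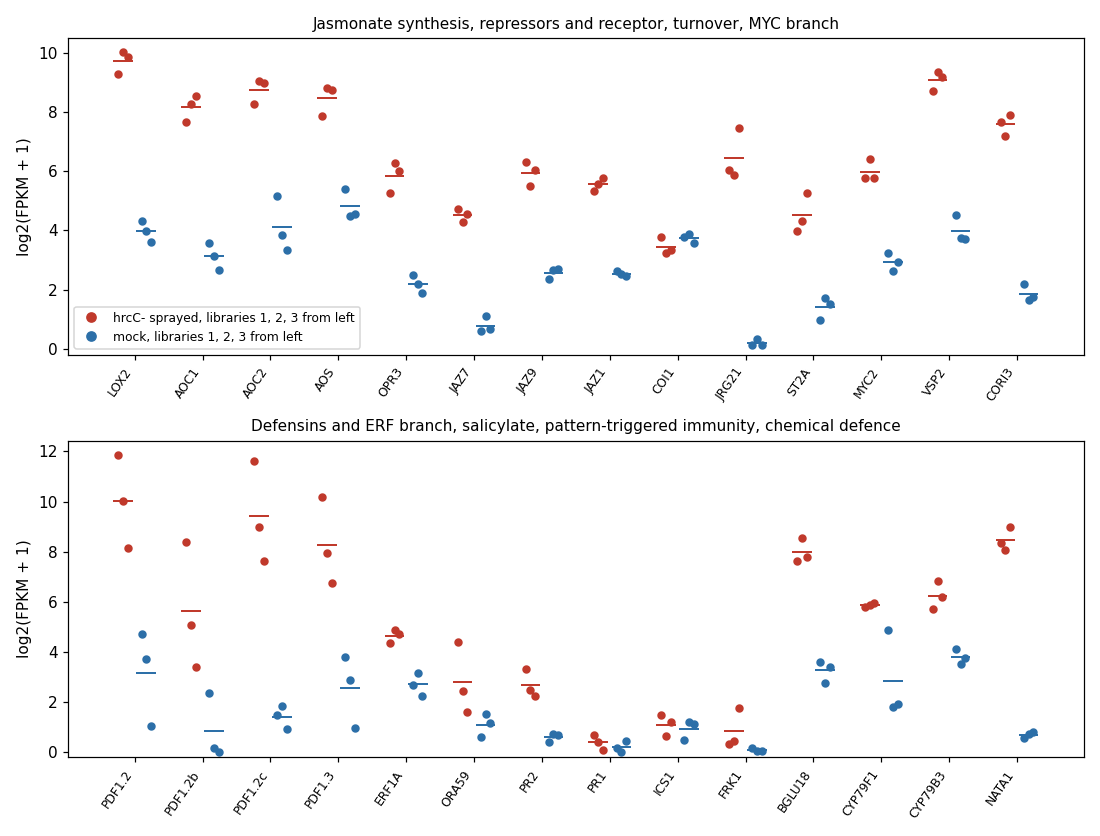
log2(FPKM + 1) of each library for hormone and defence genes, hrcC- libraries 1 to 3 in red on the left of each gene, mock libraries in blue on the right, lines at group means. For LOX2, JAZ7, JRG21 and NATA1 the groups stand far apart, while COI1, PR1 and ICS1 overlap, and the defensins spread widely among the hrcC- libraries.

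The ERF branch, which combines jasmonate with ethylene, was led by defensins whose level differed widely among the hrcC- libraries. PDF1.2, the standard marker of this branch, had 3669, 1051 and 286 FPKM in hrcC- libraries against 25.3, 12.3 and 1.07 FPKM in mock libraries. PDF1.2c, the adjacent gene on chromosome 5, had 3159, 505 and 199 FPKM in hrcC- libraries against 1.81, 2.6 and 0.903 FPKM in mock libraries (log2 fold change 7.96 ± 0.74 SE, adjusted p = 4.28e-05). Library 1 was highest and library 3 lowest after hrcC- for both, and also for PDF1.3, with 1153, 245 and 106 FPKM in hrcC- libraries against 13, 6.46 and 0.957 FPKM in mock libraries. The defensin genes are near-identical, so reads may be shared among them, and PDF1.2b (338, 32.9 and 9.58 FPKM in hrcC- libraries against 4.24, 0.12 and 0 FPKM in mock libraries) lost its call without hrcC- library 2 (adjusted p = 0.0548), mock library 2 (adjusted p = 0.0875) or mock library 3 (adjusted p = 0.0832). PR4, a hevein-like protein, rose by 2.13. Among the transcription factors, ERF1A, ERF2 and ERF13 rose by 1.95, 1.98 and 2.03. ORA59, which is known to activate PDF1.2, had 20.0, 4.43 and 2.05 FPKM in hrcC- libraries against 0.544, 1.86 and 1.26 FPKM in mock libraries and was not called (adjusted p = 0.091). Of 24 measured genes of the branch, 8 rose, against 2.87% of all genes.

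The GCC box GCCGCC, the site of ERF factors, was read in the same windows on both strands. PDF1.2b held the only copy among the 8 called genes of the branch and is shown for that reason, with the box in capitals.
PDF1.2b: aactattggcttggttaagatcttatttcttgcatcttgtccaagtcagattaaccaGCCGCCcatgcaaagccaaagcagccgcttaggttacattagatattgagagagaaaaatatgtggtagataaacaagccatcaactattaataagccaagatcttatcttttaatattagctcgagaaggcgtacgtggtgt
The window lies at chr2:11088923-11089122 (plus strand), and the box starts at position -143. It stood in 1.22% of windows of genes that rose and 1.51% of all windows.

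Genes of ethylene itself moved little. None of 15 measured synthesis and signalling genes was called by limma (1 fell without mock library 3), with 2 above 0 and 2 below 0 at unadjusted p values up to 0.05. The ACC oxidases went both ways below 2-fold: EFE (ACO4) had 83.6, 81.6 and 80.0 FPKM in hrcC- libraries against 50.1, 46.5 and 42.6 FPKM in mock libraries, and ACO1 had 1.41, 1.63 and 1.73 FPKM in hrcC- libraries against 4.45, 4.2 and 3.57 FPKM in mock libraries. Both pairs of groups were apart (adjusted p = 0.024 and 0.0252).

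Salicylate genes were mostly not called. ICS1, which makes most pathogen-induced salicylate, had 1.79, 0.572 and 1.3 FPKM in hrcC- libraries against 0.41, 1.29 and 1.16 FPKM in mock libraries, and the marker PR1 had 0.628, 0.339 and 0.0565 FPKM in hrcC- libraries against 0.118, 0 and 0.355 FPKM in mock libraries, near the lower limit of measurement in every library. PR2, a beta-glucanase, did rise, with 9.14, 4.64 and 3.82 FPKM in hrcC- libraries against 0.319, 0.685 and 0.616 FPKM in mock libraries (log2 fold change 2.06 ± 0.42 SE, adjusted p = 0.015). GRX480, a glutaredoxin of salicylate and jasmonate crosstalk, rose by 1.76, a call lost without hrcC- library 2 (adjusted p = 0.0632), hrcC- library 3 (adjusted p = 0.0709), mock library 1 (adjusted p = 0.0511) or mock library 3 (adjusted p = 0.0641). The other 19 of 21 measured genes were not called, among them EDS1, PAD4 and NPR1 at -0.07, -0.14 and 0.07. The 2 calls compare with 2.87% of all genes. Of the 21 genes, 16 lay above 0 and 5 below, with a median of 0.42 against -0.06 for all genes. At unadjusted limma p values up to 0.05, 6 were above 0 and 0 below.

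Of 24 measured genes of pattern-triggered immunity, 2 were called after 24 h, against 2.87% of all genes. The list leaned upward below that threshold: 21 genes lay above 0 and its median was 0.51, against -0.06 for all genes. At unadjusted limma p values up to 0.05, 12 were above 0 and 0 below, against 1558 and 1474 of 17158 tested. None of 8 measured receptor genes was called, and although each was above 0, 5 had unadjusted p values up to 0.05. FLS2, the flagellin receptor, had 1.16, 0.721 and 1.07 FPKM in hrcC- libraries against 0.525, 1.09 and 1.36 FPKM in mock libraries. SOBIR1, a co-receptor, had 6.37, 13.1 and 10.7 FPKM in hrcC- libraries against 2.77, 4.79 and 5.1 FPKM in mock libraries (adjusted p = 0.0712), and the transcription factor WRKY33 had 14.2, 10.6 and 12.1 FPKM in hrcC- libraries against 3.87, 10.6 and 5.8 FPKM in mock libraries (adjusted p = 0.0912). FRK1, a common marker of early responses, did not pass the filter on low values, with 0.274, 0.365 and 2.42 FPKM in hrcC- libraries against 0.117, 0.0465 and 0.0447 FPKM in mock libraries. CYP81F2, which modifies indole glucosinolates, rose by 1.58, and PROPEP3, the precursor of a danger peptide, by 1.33. The CYP81F2 call was lost without hrcC- library 2 (adjusted p = 0.0758) or hrcC- library 3 (adjusted p = 0.0938), and the PROPEP3 call without hrcC- library 2 (adjusted p = 0.0839), hrcC- library 3 (adjusted p = 0.0769), mock library 1 (adjusted p = 0.068) or mock library 3 (adjusted p = 0.0698). Calls on the list of 24 measured genes ranged from 0 without hrcC- library 2 to 5 without hrcC- library 1, and were 1 without mock library 1 or 3 or hrcC- library 3. The paired factors WRKY18 and WRKY40, known to restrain defence, rose by 1.71 and 1.4, with the WRKY40 call lost without hrcC- library 3 (adjusted p = 0.101), mock library 1 (adjusted p = 0.0639) or mock library 3 (adjusted p = 0.0666).

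Chemical defence genes rose at several steps of their routes. In tryptophan synthesis, ASA1, the committed anthranilate synthase, had 29, 28.5 and 30.1 FPKM in hrcC- libraries against 8.73, 11.3 and 7.47 FPKM in mock libraries, and ASB1, PAT1 and TSB1 rose by 1.09, 1.25 and 1.051. Downstream, CYP79B3 had 51.9, 112 and 73.1 FPKM in hrcC- libraries against 16.4, 10.4 and 12.5 FPKM in mock libraries and CYP83B1 had 124, 223 and 185 FPKM in hrcC- libraries against 61.2, 33.4 and 33.4 FPKM in mock libraries. Both act early in the indole glucosinolate route, and CYP79B2 and SOT16 rose as well, by 1.8 and 1.51. GGP1, which processes glutathione conjugates, rose by 1.96, whereas PAD3, the last enzyme of camalexin, had 7.26, 4.44 and 2.1 FPKM in hrcC- libraries against 1.3, 1.33 and 1.54 FPKM in mock libraries and was not called (adjusted p = 0.109). Of 24 measured genes of the list, 10 rose, against 2.87% of all genes, and none was below 0. Without mock library 3 the number of calls was 6.

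Aliphatic glucosinolates, made from methionine, differed also, but mock library 1 stood apart. MAM1, which lengthens the side chain, had 50.2, 25.3 and 47.3 FPKM in hrcC- libraries against 5.7, 9.08 and 6.51 FPKM in mock libraries, and IMD1, of the same elongation cycle, had 79.8, 46 and 59.2 FPKM in hrcC- libraries against 22.9, 15.2 and 14.6 FPKM in mock libraries. CYP79F1, the first enzyme of the core route, had 54.1, 57.9 and 61.5 FPKM in hrcC- libraries against 28.6, 2.48 and 2.76 FPKM in mock libraries, so that mock library 1 lay far above the other mock libraries and nearest to the hrcC- libraries. Its call was lost without hrcC- library 2 (adjusted p = 0.087), hrcC- library 3 (adjusted p = 0.102), mock library 2 (adjusted p = 0.116) or mock library 3 (adjusted p = 0.0994). BCAT4 and CYP79F2 rose by 1.96 and 1.67 and likewise lost their calls without single libraries. Of 18 measured genes 7 rose, against 2.87% of all genes. This count was 14 without mock library 1, with a median of 2.0 in place of 1.36, and 3 without any one of mock libraries 2 and 3 and hrcC- libraries 2 and 3.

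Enzymes that activate sulfate for glucosinolates moved in parallel. APK2, an APS kinase, had 56.1, 53.9 and 55.8 FPKM in hrcC- libraries against 21.6, 5.56 and 6.06 FPKM in mock libraries, and APS1, ATP sulfurylase, had 170.4, 176 and 173 FPKM in hrcC- libraries against 80.7, 57.6 and 64.6 FPKM in mock libraries. APK1 rose by 1.27, a call lost without hrcC- library 1 (adjusted p = 0.0827), hrcC- library 2 (adjusted p = 0.0503), hrcC- library 3 (adjusted p = 0.157), mock library 2 (adjusted p = 0.143) or mock library 3 (adjusted p = 0.125). In contrast, the APS reductases of primary sulfur assimilation, APR1, APR2 and APR3, were not called, at 0.58, -1.2 and -1.29.

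ER bodies, spindle-shaped stores of beta-glucosidase that belong to the mustard family, gave a uniform list. Each of the 14 genes rose, against 2.87% of all genes, and the list median was 1.8. BGLU18, a beta-glucosidase of wound-induced ER bodies, had 198, 369 and 222 FPKM in hrcC- libraries against 11.3, 5.79 and 9.7 FPKM in mock libraries (log2 fold change 4.72 ± 0.33 SE, adjusted p = 4.47e-06). PYK10 (BGLU23), the main root enzyme, was abundant in both groups, with 657, 722 and 700.3 FPKM in hrcC- libraries against 242, 319.7 and 403 FPKM in mock libraries. NAI1, the transcription factor that sets up ER bodies, had 21.6, 19 and 24.2 FPKM in hrcC- libraries against 4.14, 7.8 and 8.87 FPKM in mock libraries, and NAI2, a structural protein, rose by 1.5. The jacalin-related lectins that associate with these enzymes followed. JAL23 had 77.9, 49.4 and 62.3 FPKM in hrcC- libraries against 0.792, 0.153 and 0.105 FPKM in mock libraries and JAL35 had 101, 123 and 145 FPKM in hrcC- libraries against 19, 24.2 and 21.9 FPKM in mock libraries. MBP1, a myrosinase-binding protein, rose by 5.09. BGLU21 and BGLU22 are close copies, and the calls of BGLU21 and GLL22 have the highest adjusted p of the list, at log2 fold changes of 1.24 and 1.41 (adjusted p = 0.0413 and 0.0301).

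Some genes of small defence proteins and detoxification rose as well. AT2G43530, a knottin-like protein, had 579.6, 402 and 586 FPKM in hrcC- libraries against 14.7, 19 and 25.2 FPKM in mock libraries (log2 fold change 4.68 ± 0.2 SE, adjusted p = 8.75e-08), and its relative AT2G43550 had 195, 323 and 272 FPKM in hrcC- libraries against 40.1, 17.1 and 13.1 FPKM in mock libraries. KTI1, a Kunitz trypsin inhibitor, rose by 2.79. By annotation, 10 of 24 measured knottin- and defensin-like genes, 6 of 8 MD-2-related lipid recognition genes, 9 of 31 MATE efflux carriers and 17 of 141 cytochromes P450 rose (26 without hrcC- library 1). The share over all genes was 2.87%, and these families were picked after the values were seen. In ascorbate recycling, DHAR1 had 608, 720.2 and 705 FPKM in hrcC- libraries against 155, 128 and 99.2 FPKM in mock libraries and MDHAR had 12.7, 14 and 20.4 FPKM in hrcC- libraries against 3.1, 5.15 and 3.66 FPKM in mock libraries, whereas DHAR2 and DHAR3 were not called, at -0.23 and -0.27. Among glutathione S-transferases 5 of 30 rose. GSTU4 had 10.4, 11.5 and 18.18 FPKM in hrcC- libraries against 2.25, 1.67 and 1.7 FPKM in mock libraries, while GSTF7, at 2.49, lost its call without hrcC- library 2 (adjusted p = 0.0828), hrcC- library 3 (adjusted p = 0.0926), mock library 1 (adjusted p = 0.0629) or mock library 3 (adjusted p = 0.0676). The number of called transferases was 1 without mock library 3 or hrcC- library 3, close to the share over all genes, and 2 without hrcC- library 2. The thalianol cluster, a run of neighbouring triterpene genes on chromosome 5, also rose: THAS1, the synthase, had 17.2, 16.3 and 15.4 FPKM in hrcC- libraries against 3.73, 3.21 and 4.1 FPKM in mock libraries, and CYP705A5 had 46.8, 96.7 and 58.7 FPKM in hrcC- libraries against 10.3, 6.2 and 15.9 FPKM in mock libraries. By contrast, none of 14 measured phenylpropanoid genes was called (0 above and 2 below 0 at unadjusted p values up to 0.05).

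The genes that fell were fewer and came from other processes, with nicotianamine and iron genes at the top. Nicotianamine is a small chelator that carries iron, zinc and copper within the plant. NAS2, a nicotianamine synthase, had 0.19, 1.38 and 0.445 FPKM in hrcC- libraries against 40.5, 8.38 and 17 FPKM in mock libraries (log2 fold change -3.52 ± 0.5 SE, adjusted p = 0.00122), the largest called decrease among all genes tested. Mock library 1 was highest, but every mock library lay above every hrcC- library, and the call held without any one of the 6 libraries. Its sister NAS1 had 11.1, 16.4 and 9.38 FPKM in hrcC- libraries against 134, 28 and 64.2 FPKM in mock libraries, a call lost without hrcC- library 1 (adjusted p = 0.0596), hrcC- library 3 (adjusted p = 0.105), mock library 1 (adjusted p = 0.0514) or mock library 3 (adjusted p = 0.0666). NAS3 had 1.13, 0.395 and 0.69 FPKM in hrcC- libraries against 3.29, 2.34 and 0.55 FPKM in mock libraries and NAS4 had 12, 7.23 and 7.15 FPKM in hrcC- libraries against 14.4, 5.2 and 3.77 FPKM in mock libraries, with neither called.

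The NAS2 promoter is shown because it belongs to the steepest decrease. It holds neither a G-box nor a GCC box, and capitals mark its 1 copy of the W-box core TTGAC, here on the opposite strand as GTCAA.
NAS2: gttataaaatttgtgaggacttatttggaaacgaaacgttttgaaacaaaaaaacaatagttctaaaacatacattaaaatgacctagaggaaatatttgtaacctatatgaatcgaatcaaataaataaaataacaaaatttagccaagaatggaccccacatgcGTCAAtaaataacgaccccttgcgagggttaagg
The window lies at chr5:22712442-22712641 (minus strand). The W-box core, the site of WRKY factors, stood in 45.5% of windows of genes that fell, 42.4% of those that rose and 38.9% of all windows, so it is common everywhere.

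FIT (AT2G28160), the transcription factor that drives root iron uptake, had 6.97, 3.94 and 3.16 FPKM in hrcC- libraries against 9.76, 9.5 and 13.4 FPKM in mock libraries (log2 fold change -1.09 ± 0.19 SE, adjusted p = 0.00548). The groups did not overlap, and without hrcC- library 3 the change was -0.92, under 2-fold. CYP82C4, a hydroxylase that makes an iron-mobilising coumarin, had 7.57, 14.4 and 1.66 FPKM in hrcC- libraries against 94, 23 and 125 FPKM in mock libraries. AT3G12900, an oxygenase of the same coumarin route, had 0.0563, 0.933 and 0.0622 FPKM in hrcC- libraries against 9.79, 1.52 and 8.43 FPKM in mock libraries. The CYP82C4 call was lost without hrcC- library 3 (adjusted p = 0.108), mock library 1 (adjusted p = 0.0807) or mock library 3 (adjusted p = 0.09), and the AT3G12900 call without hrcC- library 1 (adjusted p = 0.054), hrcC- library 3 (adjusted p = 0.0946), mock library 1 (adjusted p = 0.069) or mock library 3 (adjusted p = 0.0821). IRT1, the root iron transporter, had 64.6, 61.3 and 9.93 FPKM in hrcC- libraries against 113, 52.2 and 212 FPKM in mock libraries and was not called (adjusted p = 0.234), with mock library 2 below 2 of the hrcC- libraries. FRO2, the ferric reductase, had 14.4, 12.2 and 1.73 FPKM in hrcC- libraries against 24.3, 9.77 and 51.8 FPKM in mock libraries, in the same order. The bHLH factors that partner FIT, BHLH38, BHLH39 and BHLH100, were scattered in both groups, at -0.99, -0.03 and -0.8. Ferritins, which store iron and usually run opposite to uptake genes, also lay below 0: FER1 had 10.6, 10.8 and 25.3 FPKM in hrcC- libraries against 51.1, 39.7 and 45.6 FPKM in mock libraries (adjusted p = 0.0859), and FER3 had 5.42, 3.19 and 8.21 FPKM in hrcC- libraries against 8.25, 14.3 and 17.9 FPKM in mock libraries (adjusted p = 0.0587).

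In all, 5 of 26 measured iron genes fell, against 0.321% of all genes, 21 of them lay below 0 and the median was -0.83. The number of calls was 2 without mock library 3 and 3 without hrcC- library 1 or 3. Iron uptake genes are root genes, and root markers were lower in some of the same libraries. The summed level of 17 root hair markers ranged from 14.6 to 28.2 FPKM in hrcC- libraries and from 26.3 to 30.5 FPKM in mock libraries, and that of 16 endodermis and suberin genes from 40.0 to 67.2 FPKM and from 60.6 to 84.0 FPKM. Of these, 8 root hair genes, with a median of -0.46, and 15 endodermis genes, with a median of -0.27, passed the filter. None was called by limma (1 root hair gene was called lower without hrcC- library 2), with 0 above and 1 and 2 below 0 at unadjusted p values up to 0.05, and none of either list was at 0 in all 6 libraries. Their part in the iron result was not tested. The abundant root enzyme PYK10 was higher in the hrcC- libraries, as given above. It belongs to the ER body list, whose 14 genes all rose, so its level is not a measure of root content here.

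**Figure D3:**
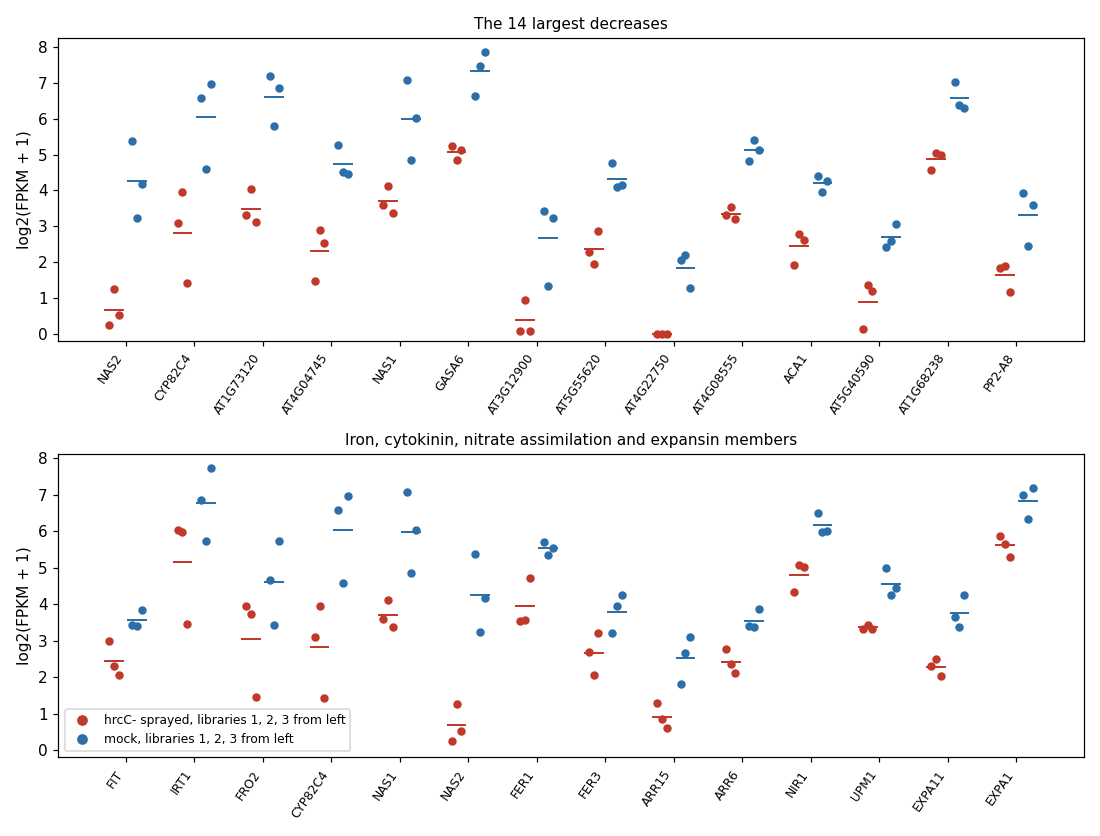
log2(FPKM + 1) of each library for genes that fell or belong to the same pathways, hrcC- libraries 1 to 3 in red on the left of each gene, mock libraries in blue on the right, lines at group means. NAS2, GASA6 and EXPA11 separate cleanly, while IRT1 and FRO2 overlap. The groups lie apart for the ferritins FER1 and, narrowly, FER3, but neither gene was called.

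Genes of nitrate assimilation also fell. NIR1, nitrite reductase, had 19.2, 32.3 and 31.4 FPKM in hrcC- libraries against 89.1, 62.2 and 63.7 FPKM in mock libraries. UPM1, which makes the sirohaem cofactor of that enzyme, had 9.0, 9.85 and 8.99 FPKM in hrcC- libraries against 30.6, 18 and 20.8 FPKM in mock libraries, and RFNR2, which passes electrons to it in roots, had 13.3, 10.8 and 9.43 FPKM in hrcC- libraries against 46.2, 24.4 and 23.7 FPKM in mock libraries. All serve the same step, but their calls leaned on single libraries: NIR1 lost its call without hrcC- library 1 (adjusted p = 0.0503) or mock library 1 (adjusted p = 0.0724), UPM1 without hrcC- library 3 (adjusted p = 0.0635) or mock library 1 (log2 fold change -0.88) and RFNR2 without hrcC- library 2 (adjusted p = 0.0507), hrcC- library 3 (adjusted p = 0.0887) or mock library 1 (log2 fold change -0.95). The nitrate reductases NIA1 and NIA2 were not called, at -0.66 and -0.74.

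Some growth genes fell. GASA6, a gibberellin-regulated peptide linked to cell elongation, had 36.4, 27.7 and 33.8 FPKM in hrcC- libraries against 99.1, 175 and 232 FPKM in mock libraries (log2 fold change -2.25 ± 0.3 SE, adjusted p = 0.000813), and hrcC- libraries agreed closely. Of 6 measured GASA peptide genes, 5 were not called, and 4 lay below 0 and 2 above. EXPA11, an expansin that loosens cell walls, had 3.9, 4.61 and 3.12 FPKM in hrcC- libraries against 11.5, 9.35 and 18.19 FPKM in mock libraries. EXPA1 had 57.7, 49 and 38.3 FPKM in hrcC- libraries against 126, 78.8 and 143 FPKM in mock libraries, a call lost without hrcC- library 3 (adjusted p = 0.0711) or mock library 3 (adjusted p = 0.0554). XTH17, a xyloglucan endotransglucosylase, had 4.64, 2.53 and 1.49 FPKM in hrcC- libraries against 8.63, 6.84 and 11.6 FPKM in mock libraries, and DGR2, a cell wall protein of the DUF642 family, had 32.7, 32.8 and 28.7 FPKM in hrcC- libraries against 62.9, 63.8 and 112 FPKM in mock libraries. The arabinogalactan proteins AGP22 and AGP15 fell by 1.42 and 1.11 on the log2 scale, AGP22 losing its call without hrcC- library 2 (adjusted p = 0.091), hrcC- library 3 (adjusted p = 0.105), mock library 2 (adjusted p = 0.0829) or mock library 3 (adjusted p = 0.0844) and AGP15 without hrcC- library 1 (adjusted p = 0.0607), hrcC- library 2 (adjusted p = 0.0716), mock library 1 (adjusted p = 0.0771) or mock library 2 (adjusted p = 0.117). Of 33 measured arabinogalactan protein genes by annotation, 26 lay below 0. In that family 2 were called lower and 1 higher, against 0.321% and 2.87% of all genes. The list of 21 measured expansins, xyloglucan enzymes and cellulose synthases had 2 called falls, against 0.321% of all genes. Its median was -0.0067, with 1 fall left without mock library 3 or hrcC- library 3. Both called falls were expansins. XTH17 is not on that list, whose 8 xyloglucan enzymes had no limma call (1 above and 2 below 0 at unadjusted p values up to 0.05).

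Cytokinin response regulators of type A, which report cytokinin signalling, lay below 0 throughout. ARR15 had 1.44, 0.796 and 0.515 FPKM in hrcC- libraries against 2.48, 5.32 and 7.63 FPKM in mock libraries, and ARR6 had 5.84, 4.13 and 3.34 FPKM in hrcC- libraries against 9.64, 9.27 and 13.5 FPKM in mock libraries. Both fell, although ARR6 was at -0.99 without hrcC- library 3. The other 6 measured type-A genes were not called, from -0.89 for ARR4 to -0.46 for ARR5, and the 10 measured genes of the list had a median of -0.65.

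Auxin genes went both ways. IAA28, an auxin repressor of root growth, had 9.4, 4.45 and 6.1 FPKM in hrcC- libraries against 11.8, 14.8 and 15.8 FPKM in mock libraries, and AT1G29430, of the SAUR family of auxin-induced growth genes, had 7.53, 11.9 and 11.4 FPKM in hrcC- libraries against 25, 22 and 24.6 FPKM in mock libraries. IAA28 was not on the auxin list, whose 8 measured Aux/IAA genes held no limma call (none at an unadjusted p up to 0.05), with 3 above and 5 below 0 and a median of -0.11. IAA28 was at -0.86 without hrcC- library 2, and AT1G29430 at -0.88 without hrcC- library 1. SAUR20 had 4.75, 6.62 and 7.53 FPKM in hrcC- libraries against 26.7, 12.9 and 12.5 FPKM in mock libraries, and its close copy SAUR21 had 6.96, 5.0 and 7.19 FPKM in hrcC- libraries against 34.7, 10.04 and 15.2 FPKM in mock libraries, with neither called. Over 52 SAUR and other auxin-responsive genes by annotation, 42 lay below 0 and 3 were called lower, against 0.321% of all genes. The called falls were 1 without hrcC- library 1, 6 without mock library 2 and 17 with the term for high scaling factors. The family also held 1 called rise, AT1G56150, at 2.01. Also in the opposite direction, GH3.3, which conjugates auxin and jasmonate to amino acids, had 7.05, 7.28 and 16.3 FPKM in hrcC- libraries against 2.37, 2.94 and 2.12 FPKM in mock libraries.

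Further genes that fell had no list. AT1G73120, an F-box/RNI protein, had 8.97, 15.3 and 7.73 FPKM in hrcC- libraries against 144, 54.7 and 116 FPKM in mock libraries (log2 fold change -3.11 ± 0.53 SE, adjusted p = 0.00481). ACA1, alpha carbonic anhydrase 1, had 2.8, 5.89 and 5.18 FPKM in hrcC- libraries against 20.3, 14.5 and 18.1 FPKM in mock libraries. AT4G04745, which is uncharacterised, had 1.77, 6.43 and 4.78 FPKM in hrcC- libraries against 37.8, 21.7 and 20.8 FPKM in mock libraries. AT5G55620, likewise uncharacterised, had 3.9, 2.88 and 6.36 FPKM in hrcC- libraries against 26.1, 16 and 16.8 FPKM in mock libraries. GLP5, a germin-like protein, was the most abundant of the called falls, with 211, 264 and 152 FPKM in hrcC- libraries against 432, 415 and 692 FPKM in mock libraries, although its call was lost without hrcC- library 3 (adjusted p = 0.085) or mock library 3 (adjusted p = 0.0666). MT1C, a metallothionein, had 157, 87.4 and 122 FPKM in hrcC- libraries against 228, 276 and 244 FPKM in mock libraries. Its call was lost without hrcC- library 2 (log2 fold change -0.9). AT4G22750, a DHHC-type zinc finger gene, was listed near 0 in each hrcC- library and at 3.12, 3.61 and 1.4 FPKM in mock libraries. How its reads were assigned is not known. Of the 55 genes that fell, 14 were called without any one of the 6 libraries, among them NAS2, AT1G73120, GASA6, EXPA11, XTH17, ARR15, ACA1 and DGR2, as were 317 of the 492 that rose.

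Some large gene groups shifted slightly with few calls or none. Of 314 measured ribosomal protein genes, 290 lay below 0, with a median of -0.43 against -0.06 for all genes. None was called by limma (4 were called lower without mock library 3, 8 without hrcC- library 1), and 113 were below 0 at unadjusted p values up to 0.05, against 1474 of all 17158 genes tested. With the trend on transcript length removed the median was -0.31. Photosynthesis genes had a median of -0.18 over 53 genes, none of them called (0 above and 3 below 0 at unadjusted p values up to 0.05). RBCS1B, a small subunit of Rubisco, had 487, 1241 and 1564 FPKM in hrcC- libraries against 3391, 1924 and 1886 FPKM in mock libraries (adjusted p = 0.227). The summed level of 6 mesophyll markers was 23880 to 32150 FPKM after hrcC- and 31170 to 43130 FPKM in mock libraries, and that of 4 guard cell markers 6.49 to 14.1 FPKM and 14.3 to 20.7 FPKM; their part in these shifts was not tested.

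Over all genes tested, hrcC- library 1 and mock library 1 lay furthest from their group means. Their root mean square deviations were 0.446 and 0.447 on the log2 scale. Mock library 1 moved several lists by itself. It was the lowest library for sugar starvation genes: SEN1 had 183, 102 and 222 FPKM in hrcC- libraries against 2.59, 139 and 44.4 FPKM in mock libraries, and DIN10 had 199.5, 161 and 197 FPKM in hrcC- libraries against 13.2, 172 and 164 FPKM in mock libraries. Only ASN1, asparagine synthetase, kept a starvation call without any one library, with 51.8, 69.6 and 132 FPKM in hrcC- libraries against 2.26, 21.9 and 11 FPKM in mock libraries. The 16 measured starvation genes had 3 called rises, against 2.87% of all genes, and a median of 1.33. They held 6 calls without mock library 2 and 1 without hrcC- library 2 or 3. Without mock library 1 they had 1 call and a median of 0.42. The same library was the highest mock library for LSU2, a sulfur deficiency gene, with 4.82, 2.98 and 2.93 FPKM in hrcC- libraries against 54.7, 2.59 and 2.4 FPKM in mock libraries, and for DFR of the anthocyanin route, with 26.2, 29.4 and 28.7 FPKM in hrcC- libraries against 20.2, 1.89 and 2.11 FPKM in mock libraries. Without it, 7 of 14 flavonoid genes were called higher in place of 0, the median of the photosynthesis list was 0.009, and 0 genes of the nitrogen, sulfur and phosphate list were called lower in place of 2. The iron list had 4 called falls without it, and of the 5 iron genes called with all libraries NAS2 and FIT were among them.

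**Figure D4:**
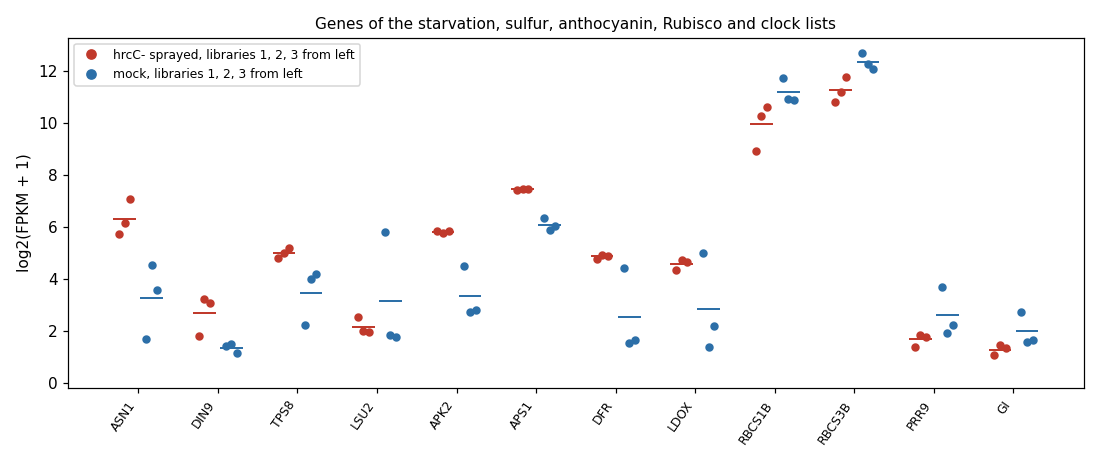
log2(FPKM + 1) of each library for genes in which mock library 1 stood apart and for comparison genes, hrcC- libraries 1 to 3 in red on the left of each gene, mock libraries in blue on the right, lines at group means. The first blue point lies far from the others for LSU2 and DFR and low for ASN1 and TPS8.

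Abscisic acid, clock, heat shock and cell division lists held 1 call among them, RD20, a caleosin, with 17.5, 16.9 and 22.7 FPKM in hrcC- libraries against 2.17, 0.715 and 1.25 FPKM in mock libraries (log2 fold change 3.07 ± 0.3 SE, adjusted p = 6.22e-05). Of these lists, 17 clock, 6 heat shock and 23 cell division genes passed the filter with no limma call, and 2, 2 and 1 of them had unadjusted p values up to 0.05. PIP2;3, a plasma membrane aquaporin, had 52.4, 64.6 and 83.2 FPKM in hrcC- libraries against 19.2, 24.8 and 37.1 FPKM in mock libraries, and CML39, a calmodulin-like protein, had 5.18, 10.2 and 13.4 FPKM in hrcC- libraries against 0, 0 and 0.319 FPKM in mock libraries.

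The libraries labelled Atg3bp1, which have mock controls of their own, gave changes of mostly the same sign. Of the genes called in the libraries labelled WT, 487 of the 492 that rose were also above 0 and each of the 55 that fell was below 0 there. Not all of these were called there, but 348 of the rises (70.7% of them, and 78.9% of the rises called in the libraries labelled Atg3bp1) and 20 of the falls (36.4% and 21.1%). Their medians were 1.67 and -1.28 in the libraries labelled WT, which chose them, against 1.49 and -0.98 in those labelled Atg3bp1. LOX2 had a log2 fold change of 5.75 in libraries labelled WT and 6.34 in those labelled Atg3bp1, NATA1 7.74 and 8.15, GASA6 -2.25 and -2.51, NAS2 -3.52 and -2.08, AT1G73120 -3.11 and -1.78, and AT4G04745 -2.41 and -0.62. In the limma interaction test of the difference between the 2 responses (12 libraries), no gene passed at an adjusted p of 0.05 (lowest 0.991). At an unadjusted p of 0.05, 755 of 17158 genes passed, no larger a share than this threshold lets through by chance. The interaction test does not show the responses to be alike.

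**Figure D5:**
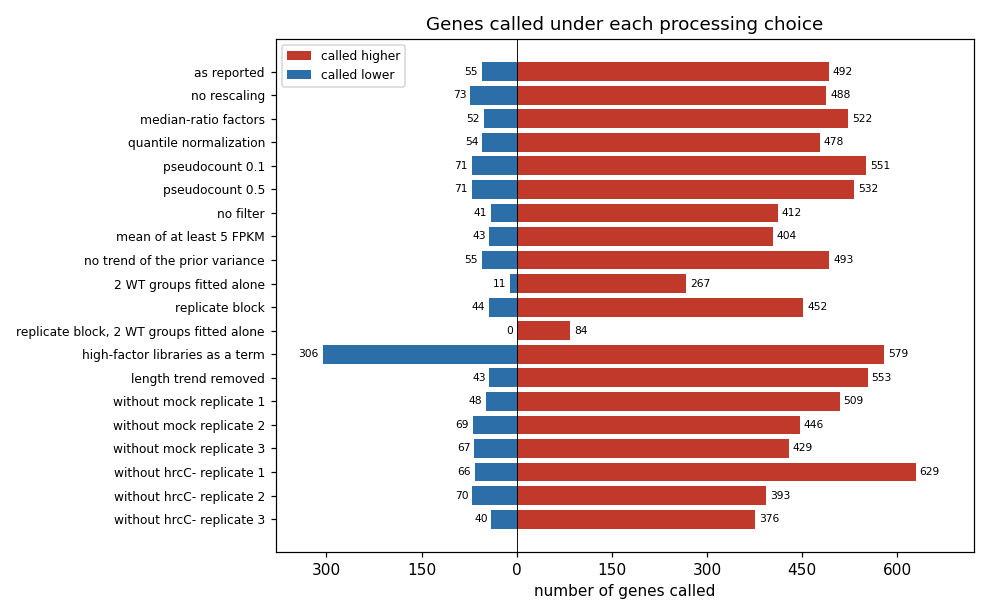
Number of genes called higher (red) and lower (blue) after hrcC- under each processing setting. Called rises ranged from 376 to 629 when single libraries were left out, and called falls from 40 to 70; the largest departures were the fits on the 6 libraries alone and, for falls, the term for libraries with high scaling factors.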

How the data were processed

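Stranded mRNA libraries were made from whole seedlings and sequenced on an Illumina HiSeq. According to the study's methods, the authors used Trimmomatic for trimming and TopHat for alignment to the TAIR10 genome, and Cufflinks then gave FPKM, a fragment level per transcript length and sequencing depth, for each library. The deposited table holds these FPKM values for 27371 genes in 12 libraries. The values are not whole reads and the table holds no read total per library, so no counting interval is given.

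FPKM were divided by each library's upper-quartile factor (0.912 to 1.2 in the 6 libraries) and moved to log2(FPKM + 1); values printed as FPKM are as deposited. Genes averaging 1 FPKM or more across the 12 libraries (17158) were tested with limma 3.58.1 (R 4.3.3), with a trended prior, the 4 groups fitted together and Benjamini-Hochberg adjustment. The code was tested on simulated data.

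Gene lists covered hormone, defence, nutrient, growth and photosynthesis pathways and cell type markers. Named were the 12 largest called changes in each direction, up to 6 called members of a list (the 2 largest changes where none was called), genes called lower and AtG3BP1; other members named were chosen after their values were seen, as were the annotation families and the ascorbate and triterpene lists. The genes and lists were chosen with earlier results of these data known. Alternatives covered scaling, pseudocount, filter, trend, length, fits on fewer groups, the replicate number as a block, the threshold and leaving out each library. Promoters were read from the RefSeq TAIR10.1 genome. Protein sequences were not used here.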

Additional observations from a re-analysis of the deposited data

How the results depend on the processing

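Each of the 492 genes that rose and the 55 that fell kept its sign under every alternative that tested it. This was largely set by their selection. For 491 of the rises and all 55 falls the 2 groups did not overlap in rescaled FPKM. Leaving out 1 library could therefore not turn their sign. Over all 17158 genes tested, the groups did not overlap for 1466 genes that were higher (8.54%) and 1492 that were lower (8.7%). The number of calls did change. With the 2 groups labelled WT fitted alone, 267 genes rose and 11 fell, in a fit that has fewer libraries from which to estimate the spread. With the term for high scaling factors 306 fell, with the adjusted p alone 122 fell, and with an unadjusted p and 2-fold 171 fell; the cause of the first was not tested. Leaving out single libraries gave 376 to 629 rises and 40 to 70 falls. CPD, a brassinosteroid enzyme that was not called, ranged from -0.012 (without mock library 1) to 0.596 under the same settings, against 0.39 with all libraries. The remaining alternatives for scaling, pseudocount, filter, trend and length gave 404 to 553 rises and 41 to 73 falls. Among the named genes, none passed the limma interaction test under any of the 17 alternatives that fit both genotypes. With the settings of the report, 755 of all 17158 genes did at an unadjusted p of 0.05, no larger a share than expected by chance.

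Whether the numbers 1 to 3 pair the libraries by experiment is not known. The deviations of same-numbered hrcC- and mock libraries correlated at -0.4, -0.42 and 0.0019, and no library correlated best with its own number. The highest correlations were 0.48, between hrcC- library 2 and mock library 1, and 0.36, between hrcC- library 1 and mock library 2. With 3 libraries per group, these correlations cannot decide whether the libraries are paired. With the replicate number as a block 452 genes rose and 44 fell. With the block in the 2 groups alone 84 rose and 0 fell by limma, where 337 genes lay below 0 at an unadjusted p of 0.05. The table gives no read counts, so low values such as those of PR1 and FRK1 have no counting interval.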
